A study of Mus musculus with 2 samples.

Results

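The data describe 10 genes that regulate the synthesis of bile acids (BAs) in mouse liver, as measured on 1 Agilent array of fasted mice and 1 array of mice upon feeding. The genes are Nr1h4, Nr0b2, Nr5a2, Hnf4a, Fgfr4, Klb, Mafg, Prox1, Onecut1 and Gpbar1, the receptors, coreceptors and factors that set the expression of Cyp8b1 and Cyp7a1. They were chosen by gene symbol, through the RefSeq transcript of each probe, and by no cutoff on their values, but with earlier results of these data known. All 10 were represented, by 14 of the 39402 probes for transcripts, among 20652 genes that could be named.

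Total RNA from the livers of 3 male mice was pooled in each group and labelled with Cy3, so that each group had a single array and the values have no replicate error between mice. The animals were adult C57BL/6J mice kept on chow, and neither group carried an allele or received an agent. One label states a fast of 16 h and another an overnight fast of 14 to 16 h. The feeding group is described both as fed ad libitum and as given food after the fast. The study asked which hepatic pathways respond to nutrient ingestion. Well above background were 63.1% of the transcript spots on the fasting array and 72.3% on the feeding array, and no spot was saturated. The hepatocyte markers Alb, Ttr, Apoa1, Apob, Cps1, Tat, Asgr1 and Cyp2e1 were well above background on both arrays, with a median difference of -0.05 on the log2 scale. Their summed signals were 617169 upon fasting and 541799 upon feeding. Tat had the largest difference, from 104878 to 53470 (-0.97), and 2 of the 8 were above 0. Fgf15, an intestinal hormone gene, did not stand well above background in either pool. Of the intestinal markers, Fabp2 (12347 and 10583) and Cdx1 (56.8 and 49.2) did so in both pools, Vil1 upon feeding only, and Cdx2 and Lct in neither.

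BAs are made from cholesterol in hepatocytes. CYP7A1 catalyses the first and rate-limiting step of the classical pathway, and CYP8B1, the sterol 12α-hydroxylase, directs intermediates towards cholic acid. Both genes are driven by the nuclear receptors HNF4α and LRH-1 (encoded by Nr5a2). BAs returning to the liver activate the nuclear receptor FXR (Nr1h4), which induces the repressors SHP (Nr0b2) and MAFG, while FXR in the ileum induces FGF15, a hormone that acts on hepatocytes through the receptor FGFR4 and its coreceptor β-Klotho (Klb). PROX1 is a corepressor of LRH-1 and HNF4α, HNF6 (Onecut1) is a liver-enriched homeodomain factor, and TGR5 (Gpbar1) is the membrane receptor for BAs.

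Promoters of Cyp8b1, of Nr0b2 and of Hnf4a are shown because each holds letters that one of the regulators is known to bind. All 10 genes matched the RefSeq promoter table of the assembly GRCm38.p6, with 13 promoters, since Nr5a2, Prox1 and Hnf4a have more than 1 start. Each sequence is the 250 bases before the start of transcription, written 5′ to 3′ on the strand of the gene, and the capitals mark the match. They are from chr9:121916306-121916555 (minus strand) for Cyp8b1, chr4:133553126-133553375 (plus strand) for Nr0b2 and chr2:163506607-163506856 (plus strand) for Hnf4a.
Cyp8b1: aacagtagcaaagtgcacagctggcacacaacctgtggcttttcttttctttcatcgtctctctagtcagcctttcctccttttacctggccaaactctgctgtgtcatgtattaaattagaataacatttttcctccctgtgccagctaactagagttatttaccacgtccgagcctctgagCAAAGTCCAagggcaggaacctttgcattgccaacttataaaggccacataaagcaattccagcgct
Nr0b2: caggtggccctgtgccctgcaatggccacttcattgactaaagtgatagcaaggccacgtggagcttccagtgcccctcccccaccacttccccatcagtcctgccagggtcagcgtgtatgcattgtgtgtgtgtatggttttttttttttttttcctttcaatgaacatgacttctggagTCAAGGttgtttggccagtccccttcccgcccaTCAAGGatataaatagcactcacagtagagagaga
Hnf4a: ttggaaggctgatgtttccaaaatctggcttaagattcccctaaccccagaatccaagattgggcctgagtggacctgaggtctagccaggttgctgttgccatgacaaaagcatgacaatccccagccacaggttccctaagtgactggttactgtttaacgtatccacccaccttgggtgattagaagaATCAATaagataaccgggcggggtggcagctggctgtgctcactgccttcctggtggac
The search was for 6 motifs on both strands. CAAAGTCCA, a site of HNF4α, was present in 0.384% of the 32851 promoters in the table, and it lay 67 to 59 bases before the start of Cyp8b1. TCAAGG, the core of the LRH-1 site, was present in 12.5% of all promoters and 2 times in that of Nr0b2, from 68 and from 35 bases before the start. ATTGAT, a core of the HNF6 site, was present in 6.72% of all promoters and, on the opposite strand, in 1 promoter of Hnf4a from 59 bases before the start. AGGTCA, the hexamer read by many nuclear receptors, which can overlap TCAAGG when TCA follows it, was present in 14.0% of all promoters and in 2 of the 13 promoters of the regulators, 1 of Nr5a2 and that of Nr1h4. The inverted repeat bound by FXR (AGGTCA and its reverse complement, 1 base apart) and the small Maf core TGCTGA, present in 0.00609% and 16.1% of all promoters, had no match in these 13 windows. A match describes the letters only and was not measured as a bound site.

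Of the 10 regulators, none measured on both arrays differed 2-fold between feeding and fasting in either direction. This is the threshold of the study's methods. Onecut1, well above background upon feeding only, had a lower bound, which does not place it inside 2-fold. By the same rule, with bounds taken at their values, 7.91% of the 16346 genes measured differed 2-fold, 3.29% higher and 4.62% lower upon feeding. A gene was represented by its brightest probe after quantile normalization, and a gene was measured if that probe was well above background on at least 1 array. Nr1h4, Fgfr4 and Klb were higher upon feeding by 0.53 to 0.91 on the log2 scale. Nr5a2, Gpbar1 and Hnf4a were at -0.55, -0.55 and -0.43. The median over the 10 genes was 0.10, against 0.01 over all genes, and 7 of the 10 differences were above 0, that of Onecut1 as a bound, as were 7802 of the 15199 over all genes with a value. By the rule for bounds, a gene dim upon fasting alone could have no value below 0, and 1719 genes were so. The sign of Onecut1 was thus fixed in advance, and the counts of signs do not measure a direction. With only probes well above background on both arrays, the medians were 0.13 for the regulators and -0.001 over all genes. Each probe of a regulator was a single spot on each array. Feature Extraction gives an error for each spot, and the error of a difference from this source was 0.20 to 0.22 on the log2 scale for the 13 probes measured on both arrays. This error was nearly a fixed share of the processed signal, for Nr1h4 1239 of 12392 upon fasting and 2283 of 22827 upon feeding. Multiples of it therefore mostly restate the size of the difference. The difference was more than 2 times this error for 9 of the 13 probes. The same share over all probes was not computed, so this count does not set the regulators apart from other genes. Probes with replicate spots gave an SD of a difference of 0.37 among the dimmest of 3 groups by signal, 0.15 in the group between and 0.10 among the brightest. These errors hold no difference between mice, so they do not test the effect of feeding.

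**Figure D1:**
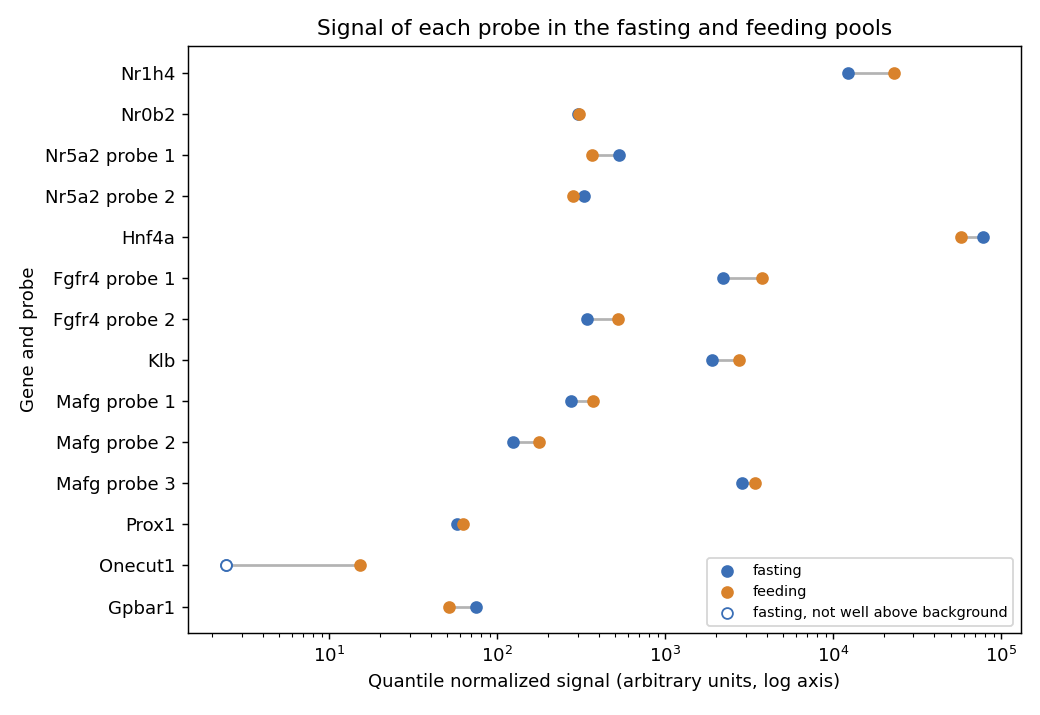
Quantile normalized signal (log axis) of the 14 probes in the fasting pool (blue) and the feeding pool (orange), 1 array each, with an open circle where the spot was not well above background. The orange points of Nr1h4, Fgfr4, Klb and Mafg lie to the right of the blue ones, those of Nr5a2, Hnf4a and Gpbar1 to the left, and those of Nr0b2 coincide; levels of different probes are not comparable.

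Among the BA receptors, Nr1h4 had the largest difference of the regulators measured on both arrays. Its signal was 12232 upon fasting and 22994 upon feeding, 1.88-fold higher or 0.91 on the log2 scale, which is 4.46 times the spot error. A larger increase was found for 4.11% of all genes measured. With each array scaled by its median the difference was 1.12, which is past 2-fold, but this scaling also moved the median of all genes to 0.13, and relative to that median the difference of Nr1h4 was 0.99. Its 1 probe carries the accession NM_001163504, which is 1 of several transcripts of the gene, and whether it measures all of them was not checked. Rxra, the obligate partner of FXR, was measured by a pair of probes that went opposite ways, 0.46 and -0.33. The gene of the second BA receptor, Gpbar1, had a signal of 74.9 upon fasting and 51.3 upon feeding, 1.46-fold lower or -0.55 on the log2 scale, 2.48 times the spot error. This difference depended on the processing, since it was -0.16 under normexp, which also adds an offset of 50 to each signal.

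TGR5 is known from Kupffer cells, sinusoidal endothelium and cholangiocytes rather than hepatocytes, and markers of some of these cells were lower upon feeding as well. Of the Kupffer cell markers 4 of the 5 measured were below 0, with a median of -0.41, and their summed signal was 58861 upon fasting and 41821 upon feeding. Adgre1, which encodes F4/80, was at -0.89, and Clec4f at -0.41. Of the sinusoidal endothelial markers all 6 measured were below 0, with a median of -0.34, and their summed signal was 37736 and 29060 in the same order. Of the cholangiocyte markers 3 of 6 were below 0, with a median of -0.07 and summed signals of 2785 and 3402. Sox9, a transcription factor of these cells, went from 377 to 1625 (2.11), a larger rise than that of the sum. Spp1, Krt19 and Cftr were at -0.46, -0.31 and -0.22, while Epcam was at 0.08 and Krt7 at 0.19 as a bound. No defining marker of these lists was at 0, although Krt7 was well above background on 1 array only and Cd68 was named by no probe. Stellate cell markers had a median of -0.30 over the 4 with a value, and the summed signal of the 5 measured was 27729 upon fasting and 23982 upon feeding. The part of these cells in the difference of Gpbar1 was not tested, and in pooled tissue RNA fewer cells of a type and less RNA per cell cannot be told apart.

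The repressors induced by FXR differed less than Nr1h4 itself. Nr0b2, which encodes SHP, an orphan receptor that lacks a DNA-binding domain and blocks LRH-1 and HNF4α, had a signal of 303 upon fasting and 306 upon feeding. Its difference of 0.01 was 0.05 times the spot error, and its sign changed with the scaling, from -0.05 to 0.07. Mafg, a small Maf protein that represses Cyp8b1, was measured by 3 probes, all of them higher upon feeding. The brightest went from 2863 to 3437, or 0.26 on the log2 scale, and the others from 274 to 370.2 (0.44) and from 124 to 176 (0.51). The brightest and the probe at 0.51 differed from each other by 0.25, against 0.29 from their spot errors and an SD of 0.18 from replicate spots. The other small Maf genes were lower upon feeding. Maff went from 530.2 to 229.8, or -1.21 on the log2 scale, and Mafk, named after its value was seen, from 785 to 439.8 (-0.84). Under normexp Maff was at -0.87 and no longer past 2-fold, while Mafg stayed above 0 and both others below 0 under all 4 ways of scaling and background correction.

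Of the activators of both hydroxylase genes, the 2 measured here were lower upon feeding. Hnf4a went from 77423 to 57592, which is 1.34-fold lower or -0.43 on the log2 scale, 2.09 times the spot error, and from -0.46 to -0.28 under the 4 ways of processing. Nr5a2 was measured by a pair of probes for the same transcript. The brighter one went from 532 to 363, which is 1.46-fold lower (-0.55), and the other from 329.9 to 282, which is 1.17-fold lower (-0.23). The gap of 0.32 between these differences was close to the 0.29 that their spot errors give, but larger than the SD of 0.21 from replicate spots. Both probes stayed below 0 under the 4 ways of processing. Decreases larger than that of the brighter Nr5a2 probe were found for 11.6% of all genes measured, and larger than that of Hnf4a for 15.8%.

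Prox1 and Onecut1 were measured near the background. Prox1 had a signal of 57.1 upon fasting and 62.5 upon feeding, a difference of 0.13 that was smaller than its spot error of 0.22. The raw signal of its spot was 119 over a local background of 36 upon fasting, and 95 over 22 upon feeding. For Onecut1 the spot was well above background upon feeding, with a signal of 15.2, but not upon fasting, where it was 2.42. The raw signals were 44.5 over a local background of 27 upon fasting and 49 over 23 upon feeding. Taken against the lowest normalized signal well above background on the fasting array, 14.4, the gene was at least 1.05-fold higher upon feeding. This bound is not strict, because the processed signal at which fasting spots were as often well above background as not was 17.1, above the processed signal of 14.5 that Onecut1 had upon feeding. Its relative Onecut2, named after its value was seen, stood well above background in both pools and differed by 0.33.

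**Figure D2:**
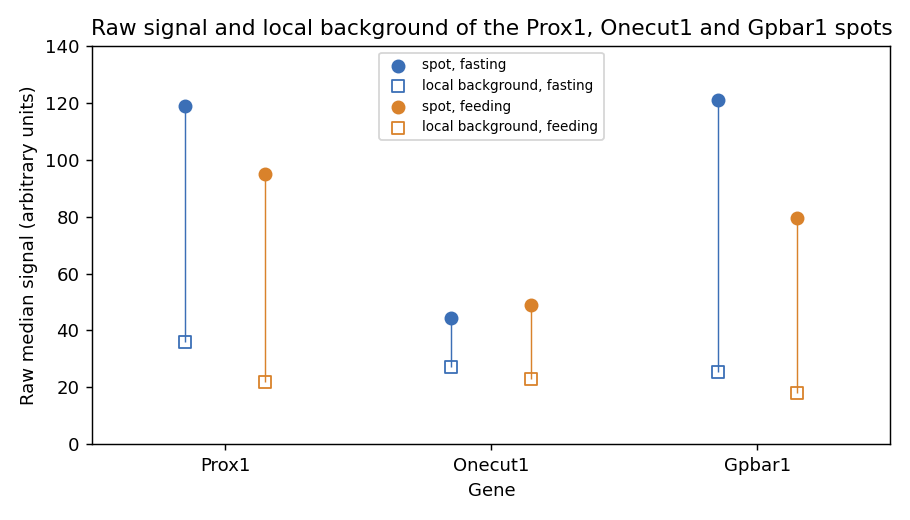
Raw median signal of the spot (filled circles) and of its local background (open squares), in arbitrary units, for Prox1, Onecut1 and Gpbar1 upon fasting (blue) and feeding (orange), 1 spot each. The Onecut1 spot read 44.5 and 49, nearest to its background, while the local background was lower upon feeding at all 3 spots.

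The receptor and coreceptor for FGF15 were both higher upon feeding. Fgfr4 was measured by a pair of probes, of which the brighter went from 2194 to 3758, 1.71-fold higher or 0.78 on the log2 scale, and the other from 343 to 521, 1.52-fold higher or 0.60. These differences were 3.80 and 2.95 times the spot error. They differed from each other by 0.17, less than the 0.29 from their spot errors and close to the SD of 0.18 from replicate spots. Klb went from 1907 to 2751, 1.44-fold higher or 0.53 on the log2 scale, 2.59 times the spot error. Larger increases were found for 6.16% of all genes measured in the case of Fgfr4 and for 12.2% in that of Klb. Under the 4 ways of processing the brighter Fgfr4 probe ranged from 0.78 to 0.98 and Klb from 0.48 to 0.73.

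The other FGF receptor genes, which were named after their values were seen, did not move together. The brightest probe of Fgfr3 was at 0.95, and at 1.14 with scaling by the median, while its second, dim probe was at -0.16. The brightest probe of Fgfr1 was at -0.35, but another of its 3 probes, from 276 to 125, was past 2-fold lower at -1.14 (-0.67 under normexp). The brightest probe of Fgfr2 was at -0.33. Kl, the gene of the related coreceptor α-Klotho, did not stand well above background in either pool. In all, 12 of 14 relatives of the regulators were measured, with a median of 0.06. Of these 1 (Maff) was at least 2-fold lower and 0 were higher upon feeding, beside 4.62% and 3.29% of all genes measured.

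Of 22 genes of the FGF signalling list, 19 were measured. Of these 2 were at least 2-fold higher and 1 lower upon feeding, beside 3.29% and 4.62% of all genes measured. The median of the list was 0.09. Dusp6, a MAP kinase phosphatase that FGF signalling induces, went from 2129.9 to 5057 (1.25 on the log2 scale), and Spry4, a feedback inhibitor of receptor tyrosine kinases, from 107 to 255 (1.25, and 0.75 under normexp). Fgf21, the fasting hormone that also signals through β-Klotho, went from 175 to 87.3 (-1.0, and -0.43 under normexp). Of the kinases and adaptors of the list, named after their values were seen, Mapk3 was at 0.22 by its brightest probe and at -0.53 by its other, Mapk8 at 0.21 by its brightest and Frs2 at -0.13.

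**Figure D3:**
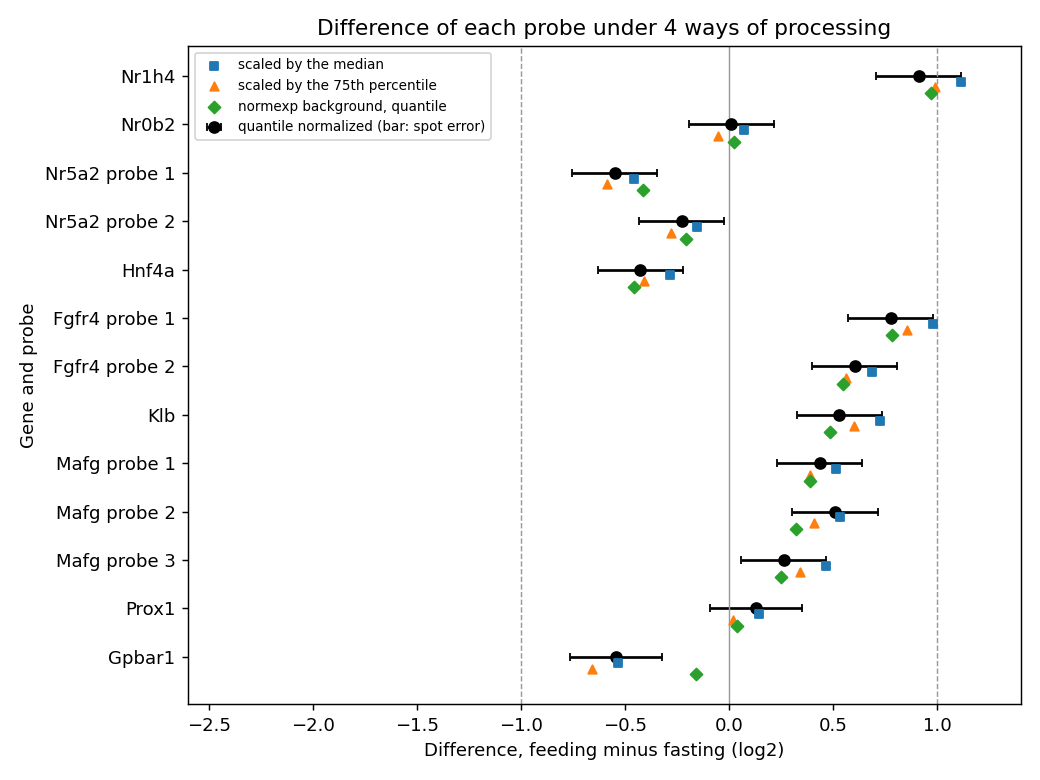
Difference between feeding and fasting (log2, feeding minus fasting) of the 13 probes measured on both arrays, quantile normalized (black, with the spot error as bar) and under 3 other ways of processing (colours); dashed lines mark 2-fold. Both Fgfr4 probes, Klb and the 3 Mafg probes lie above 0 in each setting, and only Nr1h4 with scaling by the median (1.12) lies past 2-fold.

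The genes on which the regulators act moved apart from each other. Cyp8b1 went from 2560.2 upon fasting to 1110.4 upon feeding (-1.21), whereas Cyp7a1 went from 14632 to 17594 (0.27). Under the 4 ways of processing Cyp8b1 stayed between -1.21 and -1.03 and Cyp7a1 between 0.20 and 0.49. All 17 genes of the BA enzyme list were measured, with a median of -0.03. At the 2-fold threshold 2 were lower and 0 higher, beside 4.62% and 3.29% of all genes measured. The second lower enzyme, after Cyp8b1, was Ch25h, the cholesterol 25-hydroxylase, which was dim, from 44.4 to 11.1 (-2.0), and at -0.35 under normexp. A further pair of enzymes, named after their values were seen, were Akr1d1, the Δ4-3-oxosteroid 5β-reductase, at -0.74, and Cyp2c70, the muricholic acid-forming enzyme of the mouse, at 0.58.

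Among genes known to respond to FXR in liver, 7 of 10 were measured, with a median of 0.16. Of these 2 were at least 2-fold higher and 0 lower upon feeding, beside 3.29% and 4.62% of all genes measured. Slc51b, which encodes the β subunit of the basolateral BA exporter OST, went from 114 to 418 (1.88), and Osgin1, an oxidative stress-induced growth inhibitor, from 2538 to 9025 (1.83). Both stayed past 2-fold under the 4 ways of processing, with Slc51b at 1.16 under normexp. Abcb11, which encodes the bile salt export pump and is a classical FXR target, was at -0.16, and Abcb4, the phospholipid flippase of the bile canaliculus, at -0.67, both named after their values were seen. Slc51a, which encodes the α subunit of OST, did not stand well above background in either pool.

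Further factors that act on Cyp7a1 and Cyp8b1 formed a list of 27 genes, all measured, with a median of 0.09. Of these 1 was at least 2-fold higher and 3 were lower upon feeding, beside 3.29% and 4.62% of all genes measured. Ppargc1a, the coactivator of HNF4α that is induced by fasting, had the largest decrease, -3.26 and -3.48 by its probes. Foxo1, a factor restrained by insulin, was at -1.12 and -1.16, and at -0.92 and -0.98 with scaling by the median. Vdr, the vitamin D receptor, was dim, from 41.7 to 17.1 (-1.28), and at -0.23 under normexp. Srebf1, the lipogenic factor induced by insulin, went from 191 to 1703 (3.15). The liver-enriched factors Foxa2 (0.79) and Gata4 (0.69), named after their values were seen, lay on the opposite side of 0 from Hnf4a. Nr1h3, which encodes the oxysterol receptor LXRα, was at 0.33 by its brightest probe and at 0.79 by its other, and the corepressor partners Hdac3 and Kdm1a were at 0.42 and -0.10, and these genes too were named after their values were seen.

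**Figure D4:**
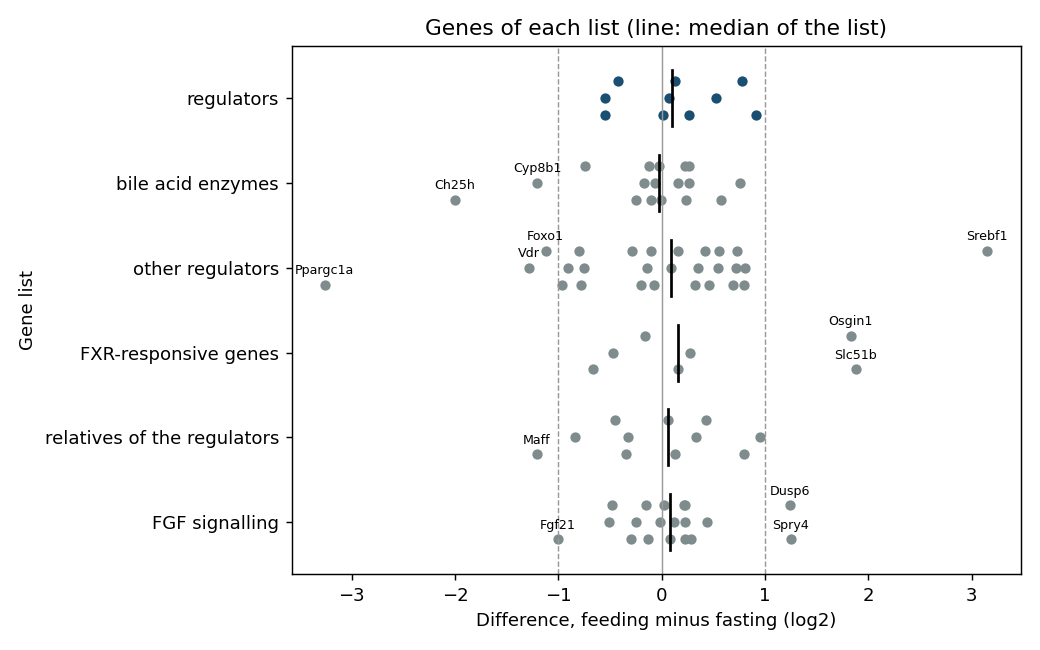
Difference between feeding and fasting (log2) of each gene in 6 lists, 1 point per gene (bounds included), with a line at the list's median and dashed lines at 2-fold; genes past 2-fold are named. The regulators lie between -0.55 and 0.91, with Onecut1 drawn at its lower bound, which does not place it inside 2-fold. Srebf1 and Ppargc1a lie farthest out.

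**Figure D5:**
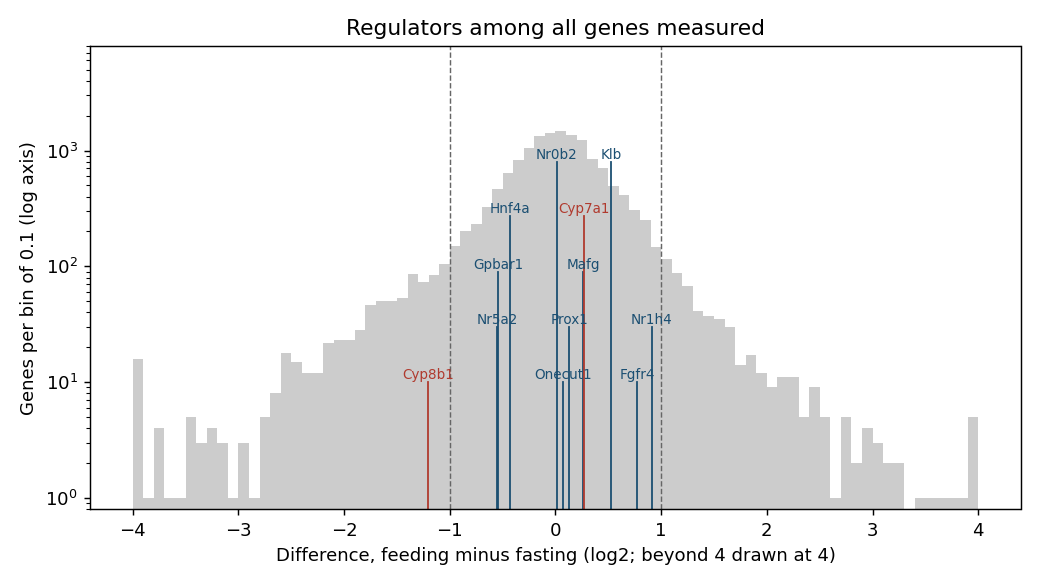
Number of genes per bin of 0.1 (log axis) by the difference between feeding and fasting (log2), with the 10 regulators (blue) and Cyp8b1 and Cyp7a1 (red) marked by lines whose heights carry no value. All 10 regulators are drawn between the dashed lines at 2-fold, but Onecut1 is drawn at its lower bound, which does not place it inside them. Cyp8b1 at -1.21 lies outside.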

How the data were processed

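The authors labelled RNA of 1 pool per group with Cy3, hybridised it to the Agilent Whole Mouse Genome 4x44K array and read the spots with Agilent Feature Extraction 11.0.1.1. The deposited values are intensities per spot, background-subtracted but not normalized between arrays. The series' value table held the mean local background of all 44397 spots and was used for no result.

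Control and outlier spots were left out, log2 processed signals were averaged per probe and quantile normalized, as in the study's methods. RefSeq accessions named 27218 of 39402 probes through the table of GRCm38.p6, while the array design names an older assembly. Genes were called at 2-fold, with a lower bound where 1 array was not well above background, and without a value where that bound ran the other way. With 1 array per group no difference was tested. The number of arrays limits the precision. Local background was 23 to 50 at the regulators' spots upon fasting and 18 to 24.5 upon feeding.

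The members and lists were chosen with earlier results of these data known. Named were all members, Cyp8b1 and Cyp7a1, up to 5 genes per list past 2-fold, Fgf15, Fgf21, Rxra and Srebf1, and the defining genes of the marker lists; all others were named after their values were seen. Alternatives were median and 75th percentile scaling, normexp with an offset of 50 on the median signal, since no mean signal was used (limma 3.58.1), the mean of probes, other filters, and 1.5-fold and 3-fold thresholds. The procedure was tested on simulated data. The values of some genes of these lists are not reported here.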

Additional observations from a re-analysis of the deposited data

How the results depend on the processing

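No paired analysis was possible because each group had 1 array, and for the same reason no replicate could be left out. With each array scaled by its median, 1 of the 10 regulators (Nr1h4), 2 of the further factors, 1 of the relatives and 717 of all 16348 genes measured were past 2-fold higher, 649 of all genes were past it lower, 0 genes of the FGF signalling list were lower, Cyp8b1 was at -1.03 and Cyp7a1 at 0.49, and the medians were 0.17 for the BA enzymes, 0.26 for the further factors and 0.35 for the FXR-responsive genes. Scaling by the 75th percentile put 1 of the relatives past 2-fold higher. Under normexp 215 of all genes were higher and 312 lower, 1 BA enzyme, 0 relatives and 0 FGF signalling genes were lower, 1 FGF signalling gene was higher, and Cyp8b1 was at -1.08. With no filter and no lower bound 1177 of all genes were higher and 1189 lower, 1 regulator was higher (Onecut1, at 2.65), and the median of the relatives was 0.23. With probes well above background on both arrays only, that median was -0.10. At 1.5-fold, 2 regulators, 1 BA enzyme, 6 further factors and 2 relatives were higher, 8 further factors, 1 FXR-responsive gene and 2 relatives were lower, and 1714 of all genes were higher and 1737 lower. At 3-fold, 1 BA enzyme, 1 further factor, 0 relatives and 0 FGF signalling genes were lower, 0 FGF signalling genes were higher, and 158 of all genes were higher and 311 lower. Fewer genes pass a stricter threshold by construction, and the cause of the other changes was not tested. Of the 13 probes of the regulators measured on both arrays, only that of Nr0b2 changed sign between quantile normalization, median and 75th percentile scaling and normexp. The value of Onecut1 was a bound that could not fall below 0, so its sign shows nothing here. Signals near the background limit what can be said of Onecut1, Prox1 and Gpbar1.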

Other observations

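Of 5 intestinal genes 3 were measured and 0 were past 2-fold. Fabp2, a fatty acid binding protein, was bright, from 12347 upon fasting to 10583 upon feeding (-0.22). Of 5 pancreatic genes 4 were measured, and 1 was at least 2-fold lower upon feeding, Cela2a, which was dim, from 48.7 to 7.51 (-2.70), and at -0.40 under normexp. Over all genes measured, 3.29% were past 2-fold higher and 4.62% lower.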
